A study of Homo sapiens with 24 samples.

Results

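The response to TGFB1 was compared between SW480 and SW620 cells in 16 of the 24 RNA-seq samples of the series. SW480 is a human colon adenocarcinoma line taken from a primary tumour, and SW620 is a line from a lymph node metastasis of the same person. Cells of each line had been infected with a lentivirus that carried the catalytic domain of TET2 (Tet2CD) or with an empty vector. They were kept under puromycin (5 µg/ml) for selection and then given 4 ng/ml TGFB1 or DMSO for 24 h. That treatment is the one in the labels, whereas the study's own text describes a mixture of TGF-beta isoforms given for longer, and which of them these libraries had was not settled. There were 2 libraries for each line, construct and treatment, hence 4 libraries for each line and treatment, and all groups carried an integrated lentivirus. Each stage of disease is represented by 1 cell line, so the comparison is between these lines and not between primary and metastatic tumours. The 8 libraries treated with RepSox were not used here.

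TGFB1 is a secreted ligand that binds TGFBR2, which recruits and activates TGFBR1. The receptors phosphorylate SMAD2 and SMAD3, which enter the nucleus with SMAD4 and change the transcription of target genes, among them the feedback inhibitors SMAD7, SKIL and PMEPA1. In colon epithelium the pathway is known for arresting growth and, in tumours, for changes of adhesion and matrix genes. Other routes from the receptors, through MAP kinases and PI3 kinase, do not need SMAD4.

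The measure throughout is the log2 fold change of TGFB1 against DMSO (the response) in each line, averaged over vector and Tet2CD cells, and the response of SW480 minus that of SW620 (the difference). A difference below 0 means that a gene rose more, or fell less, in SW620. Over 14983 genes, 347 had a difference past an adjusted p of 0.05 in edgeR's quasi-likelihood test (2.32% of genes tested). Of these, 160 were above 0 (1.07%) and 187 below 0 (1.25%), and 81 and 134 of them, respectively, were at least 2-fold. For most genes with a difference the larger response was that of SW620. The median response of the genes below 0 was 0.05 in SW480 and 1.29 in SW620. For the genes above 0 these medians were 0.1 and -0.93. The counts that follow depend on the spread of the libraries, and not passing in SW480 does not mean no response there. Of the 187 genes below 0, 161 rose in SW620 and were not past the threshold in SW480, 13 rose in both lines, 8 fell in SW480 only, and 1 fell in SW480 and rose in SW620, whereas 4 passed in neither line. Of the 160 genes above 0, 147 fell in SW620 and were not past the threshold in SW480, 6 rose in SW480 only, 2 fell in both, 2 rose in SW480 and fell in SW620, and 3 passed in neither. The size of the response was larger in SW620 for 92.5% of the 347 genes, against 63.8% of all genes tested.

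The separate responses gave the same picture of scale. TGFB1 changed 231 genes in SW480 (1.54%), 165 up (1.1%) and 66 down (0.44%). It changed 2960 in SW620 (19.8%), 1486 up (9.92%) and 1474 down (9.84%). The median absolute log2 response over all genes was 0.211 in SW480 and 0.327 in SW620. Across the 14983 genes, which are not independent replicates, the responses of the lines had a Pearson r of 0.282, and of 0.501 over the 6848 genes with a mean log2 CPM of at least 5. Between vector and Tet2CD cells of 1 line, r over all genes was 0.193 in SW480 and 0.469 in SW620. Between the lines it was 0.19 in vector cells and 0.175 in Tet2CD cells. The SW480 responses of the 2 constructs were thus hardly more alike than those of different lines. A total of 140 genes passed in both lines in the same direction, 103 up and 37 down, and 3 passed in opposite directions.

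**Figure D1:**
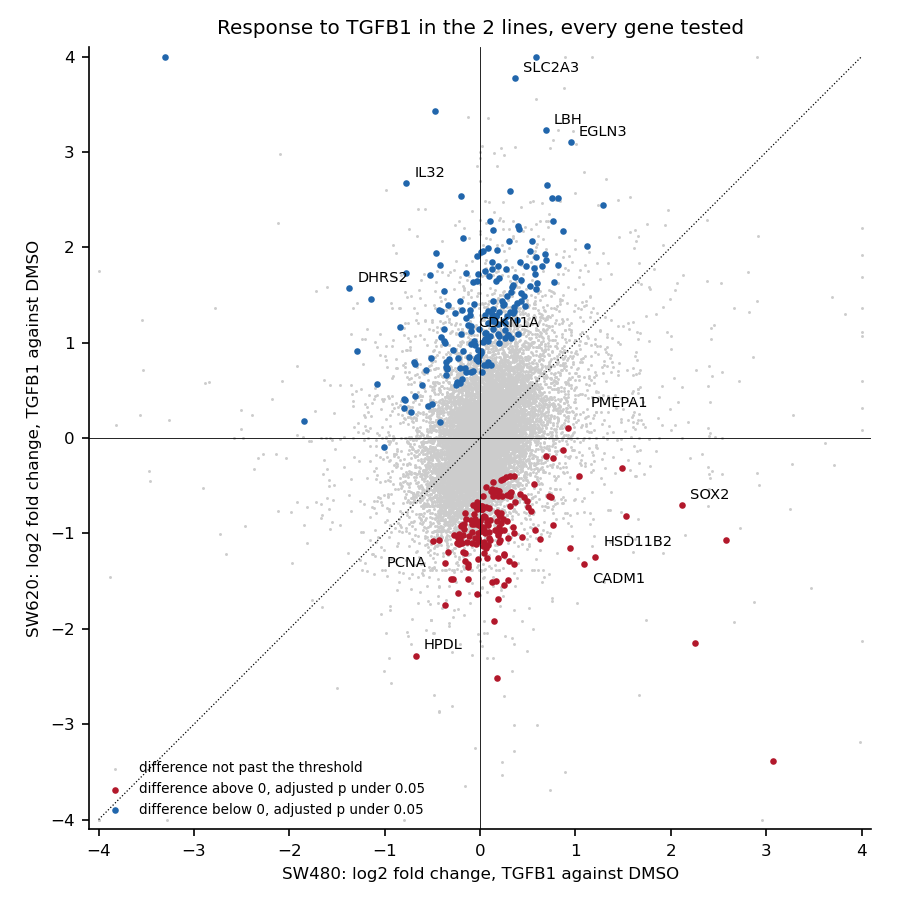
Log2 fold change of TGFB1 against DMSO in SW480 (x axis) and SW620 (y axis) for each of 14983 genes, with the dotted line where the responses are equal. Blue points (187 genes, difference below 0) lie mainly above the horizontal axis near an SW480 response of 0, red points (160 genes, difference above 0) mainly below it, and 22 genes beyond 4 on either axis are drawn at the edge.

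Several facts about the libraries bear on these counts. Total expected counts ran from 2694170 to 4410567 with a median of 3653712, so genes at a few counts are measured poorly. Replicate 1 of the SW480 Tet2CD cells stood apart in both treatments, with 10.86% of its counts in ribosomal protein genes with DMSO and 12.67% with TGFB1, against 6.18% to 9.69% in the other 14 libraries, and a mean GC content of 51.76% and 52.48% against 48.94% to 50.74%. Without these 2 libraries the difference was past the threshold for 1741 genes, 866 above 0 and 875 below, and 345 of the 347 genes were among them. The responses then passed for 1864 genes in SW480 and 5623 in SW620. With each of the 16 libraries left out in turn, 121 of the 347 genes passed in every fit. The sign was kept by 347 in each, which their selection in the same libraries favours. The colon epithelial genes EPCAM, CDX2, VIL1, HNF4A, KRT8 and KRT18 were present in both lines, while KRT20, CDX1 and CEACAM5 were below the filter on low counts. The summed level of 10 fibroblast markers was 15.9 to 169 CPM (counts scaled to the same library total after TMM adjustment) over the SW480 libraries and 50.4 to 72.6 over the SW620 libraries, and DPT was at 0 throughout. Endothelial markers summed to 36.1 to 105 CPM in SW480 and 8.68 to 19.9 in SW620. Blood cell markers summed to 14.4 to 25.1 CPM in SW480 and 52.8 to 68.4 in SW620. LGALS4, another colon epithelial gene, was low in both lines, at 0 to 3.76 CPM.

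Before the values, the promoters of genes at the extremes of the difference are shown, as the 250 bases before the RefSeq start site on the strand of the gene (GRCh38.p14). IL32, a cytokine, and PDCD1, an inhibitory receptor known from T cells, were among the 3 genes with the most negative difference of those past the threshold with a symbol and a mean log2 CPM of at least 1.0. CYP2E1, a cytochrome P450, and SOX2, a transcription factor, were among the 3 with the most positive in the same set. EGLN3, a prolyl hydroxylase that marks hypoxia-inducible factors for breakdown, was added after its values were seen. Capitals mark matches to TGANTCA (AP-1), GTCTAGAC (a SMAD palindrome) and ACGTG or GCGTG (the core bound by hypoxia-inducible factors, added later), searched on both strands, and a promoter all in lower case holds none of these letters.
IL32: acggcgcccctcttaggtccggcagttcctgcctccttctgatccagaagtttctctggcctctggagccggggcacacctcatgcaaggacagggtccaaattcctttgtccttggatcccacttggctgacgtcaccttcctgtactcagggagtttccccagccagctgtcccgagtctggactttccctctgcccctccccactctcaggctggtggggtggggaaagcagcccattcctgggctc
PDCD1: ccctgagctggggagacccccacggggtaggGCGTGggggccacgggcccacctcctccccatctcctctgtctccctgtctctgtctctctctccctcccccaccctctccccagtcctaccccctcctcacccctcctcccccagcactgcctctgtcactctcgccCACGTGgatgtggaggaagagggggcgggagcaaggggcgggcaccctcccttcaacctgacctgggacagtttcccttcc
EGLN3: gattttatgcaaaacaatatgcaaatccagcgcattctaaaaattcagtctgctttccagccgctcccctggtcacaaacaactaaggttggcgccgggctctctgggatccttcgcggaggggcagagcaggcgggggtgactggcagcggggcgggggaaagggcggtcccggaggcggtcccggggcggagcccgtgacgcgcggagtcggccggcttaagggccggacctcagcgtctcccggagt
CYP2E1: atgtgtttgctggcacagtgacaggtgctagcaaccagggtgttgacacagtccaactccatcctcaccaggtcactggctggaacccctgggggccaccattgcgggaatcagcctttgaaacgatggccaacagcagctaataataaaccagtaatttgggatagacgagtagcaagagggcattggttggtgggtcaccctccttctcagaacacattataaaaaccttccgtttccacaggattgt
SOX2: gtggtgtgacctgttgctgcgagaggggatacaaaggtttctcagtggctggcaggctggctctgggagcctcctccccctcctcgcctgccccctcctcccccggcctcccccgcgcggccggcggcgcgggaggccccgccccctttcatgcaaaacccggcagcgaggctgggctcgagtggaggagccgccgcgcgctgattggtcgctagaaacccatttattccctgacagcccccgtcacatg
They lie at chr16:3065153-3065402 (plus strand), chr2:241858895-241859144 (minus), chr14:33951075-33951324 (minus), chr10:133527113-133527362 (plus) and chr3:181711675-181711924 (plus). LINC00868 and RGPD6 complete the sets of 3, and RGPD6 is left unprinted because it has near-identical copies and 4 listed starts. IL32 is printed at the first of its 2 listed starts.

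Of the 5 promoters, only that of PDCD1 held any match, with ACGTG found at 2 positions (the palindromic CACGTG, read on each strand) and GCGTG at 1. Over all 35116 promoters listed, each start counted by itself, TGANTCA was in 6.57%, GTCTAGAC in 0.182% and ACGTG or GCGTG in 43.2%. The shares that follow count genes, with a match before any listed start of the gene, and are not to be set against those per promoter. Among genes with a listed promoter, TGANTCA was in 13 of 138 with a difference below 0 (9.42%), 5 of 127 above 0 (3.94%) and 6.22% of the 11278 tested. ACGTG or GCGTG was in 58.7% of the genes below 0, 70.1% of those above 0 and 64.1% of those tested. These shares are descriptions of the letters and carry no test.

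The receptor and SMAD genes did not differ between the lines past the threshold. TGFBR1, TGFBR2 and SMAD2 had responses within 0.31 of 0 on the log2 scale in each line, with differences of 0.32 ± 0.29 (SE), 0.12 ± 0.25 and -0.28 ± 0.21. SMAD3 rose in SW620 (0.59 ± 0.15, adjusted p = 0.0114) and had a response of 0.08 ± 0.15 in SW480, with a difference of -0.50 ± 0.22 (adjusted p = 0.255). SMAD4 had 0 to 7 counts per library in SW480 and 3 to 8 in SW620, too few to test. RUNX3, a partner factor of SMADs, rose in both lines, by 0.74 ± 0.11 in SW480 and 0.83 ± 0.11 in SW620. Of 10 receptor genes and 12 SMAD and partner genes tested, 0 had a difference past the threshold, and the smallest adjusted p was 0.173 (ENG) among the receptors. Over all genes tested the share was 2.32%, so a count of 0 among so few genes does not set them apart.

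Of 15 feedback inhibitors tested, 1 rose (PMEPA1) and 1 fell (BAMBI, a decoy receptor) in SW480. In SW620 3 rose (SMAD6, SKIL and PMEPA1) and 0 fell. A difference past the threshold was seen for 0 of the 15, near the share of 2.32% over all genes. BAMBI had a response of -0.77 ± 0.16 in SW480 (adjusted p = 0.0277) and -0.04 ± 0.16 in SW620. PMEPA1, which keeps SMAD2 and SMAD3 from the receptor, is given with its CPM in vector replicates 1 and 2 and then Tet2CD replicates 1 and 2, an order kept for all genes here. In SW480 it was 92.5, 84.8, 116 and 125 with DMSO and 184.0, 184.5, 238.5 and 273 with TGFB1. In SW620 it was 55.2, 52.3, 47.3 and 50.1 with DMSO and 74.0, 57.1, 79.6 and 70.9 with TGFB1. The treated libraries lay above the DMSO libraries in each line. The response was 1.07 ± 0.12 in SW480 (adjusted p = 0.000625) and 0.46 ± 0.12 in SW620 (adjusted p = 0.0129), and the difference of 0.61 ± 0.17 did not pass (adjusted p = 0.0643), though it did without the 2 SW480 Tet2CD libraries (adjusted p = 0.0119). SKIL rose in SW620 (0.64 ± 0.21, adjusted p = 0.0438) and had a similar estimate in SW480 that did not pass (0.57 ± 0.22, adjusted p = 0.223). SMAD7 had responses of 0.20 ± 0.19 and 0.66 ± 0.28 and passed in neither line. The SMAD targets JUNB and IL11 rose in both lines, JUNB by 0.88 ± 0.13 in SW480 and 0.93 ± 0.13 in SW620, and IL11 by 1.66 ± 0.31 and 1.83 ± 0.39.

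TGFBI, a secreted matrix protein, rose in SW480 (0.62 ± 0.14, adjusted p = 0.0365), with a response of -0.05 ± 0.14 in SW620, but its difference of 0.67 ± 0.20 did not pass (adjusted p = 0.0873). In SW480 its CPM was 316, 326, 680 and 692 with DMSO and 364, 381, 1315 and 1476 with TGFB1, and in SW620 all 8 libraries lay between 214 and 247. The rise was thus larger in the Tet2CD cells of SW480 (1.02) than in the vector cells (0.22), although the test of whether the line difference depended on the construct gave an adjusted p of 1.0.

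Of 33 TGF-beta effector targets tested, 6 had a difference below 0, against 1.25% of all genes, and 0 above. The list median was -0.04 against 0.037 over all genes, and it was 0.18 in vector cells and -0.28 in Tet2CD cells. Those below 0 included LAMA3 and LAMB3, which encode laminin chains of the basement membrane, ITGB6, an integrin subunit that activates latent TGF-beta, TGM2, a crosslinking enzyme, and PDGFB, a growth factor. LAMB3 differed by -1.02 ± 0.18 (adjusted p = 0.00683) and LAMA3 by -1.26 ± 0.31 (adjusted p = 0.0457). TGM2 rose by 1.13 ± 0.14 in SW620, where it lay at 34.6 to 46.8 CPM with DMSO, and had a response of -0.10 ± 0.13 in SW480, where it lay at 843 to 1786 CPM. PDGFB rose in both lines, by 0.58 ± 0.12 in SW480 and 1.73 ± 0.14 in SW620, a difference of -1.15 ± 0.18 (adjusted p = 0.00439). The list median was -0.06 without the 2 SW480 Tet2CD libraries, against -0.017 over all genes in that fit.

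Integrin subunits gave 3 of 16 below 0 and 0 above, against 1.25% and 1.07% of all genes. The list median was 0.18, but its sign did not hold, at -0.45 in a fit of the vector libraries only, -0.19 without SW480 Tet2CD TGFB1 replicate 2 and -0.02 without SW480 Tet2CD DMSO replicate 1. ITGA5, the alpha chain of the fibronectin receptor, rose in both lines. Its CPM in SW480 was 119.7, 134.3, 79.1 and 64.2 with DMSO and 213, 239.8, 133.7 and 134.0 with TGFB1, and in SW620 it was 59.9, 77.1, 52.8 and 60.7 with DMSO and 298.8, 282, 318 and 224.5 with TGFB1. The response was 0.87 ± 0.13 in SW480 and 2.17 ± 0.14 in SW620, a difference of -1.30 ± 0.19 (adjusted p = 0.00262). ITGA3, a laminin receptor chain, differed by -0.88 ± 0.17 (adjusted p = 0.0144) and ITGB6 by -1.65 ± 0.38 (adjusted p = 0.0312), and both rose in SW620 only. ITGB4 rose in both lines and its difference of -0.44 ± 0.20 did not pass.

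**Figure D2:**
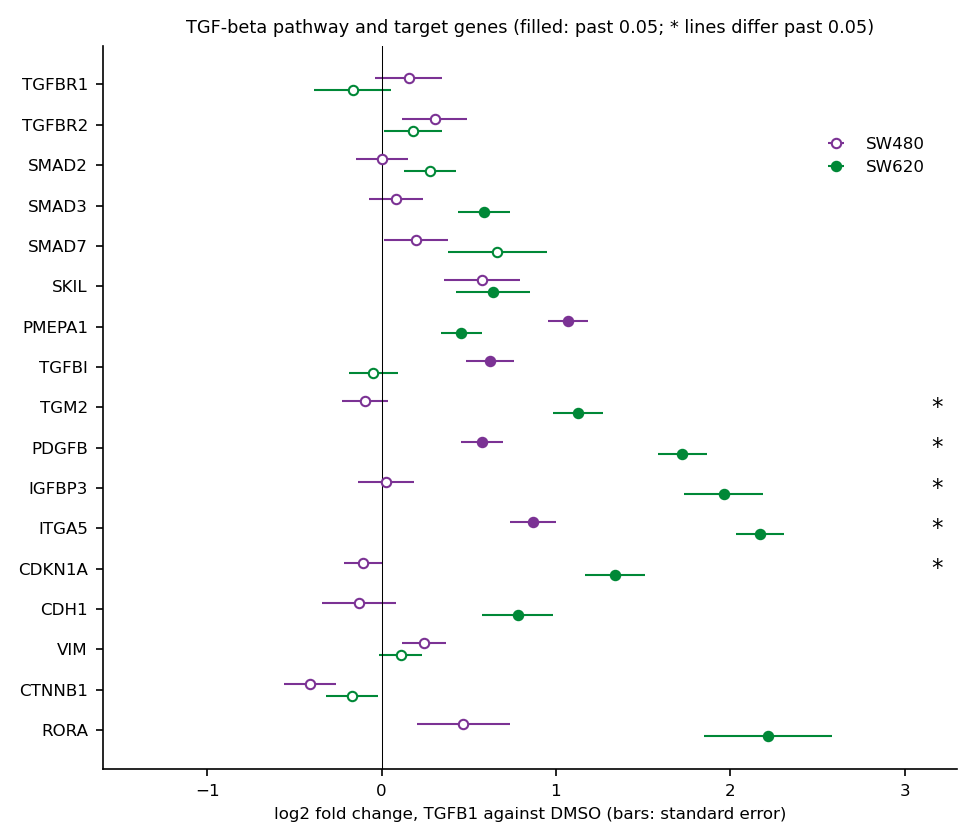
Log2 fold change of TGFB1 against DMSO (x axis, bars are standard errors) in SW480 (purple) and SW620 (green) for 17 genes of the TGF-beta pathway and genes named beside it, with filled points for responses past an adjusted p of 0.05 and a star where the lines differed past it. PMEPA1 rose in both lines, and the 5 starred genes (TGM2, PDGFB, IGFBP3, ITGA5 and CDKN1A) rose more in SW620.

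The largest share of a list with a difference was in hypoxia and glycolysis, with 8 of 26 genes below 0 and 0 above and a median difference of -0.67. All 8 rose in SW620, as did 21 of the 26, and 10 of the 26 rose in SW480. Over all genes, 9.92% rose in SW620, 1.1% rose in SW480, and 1.25% had a difference below 0. SLC2A3, a glucose transporter, had the smallest p of any gene. In SW620 it was 42.3, 51.4, 39.8 and 31.4 CPM with DMSO and 551, 536, 502.5 and 650 with TGFB1, a response of 3.77 ± 0.16. The SW480 values were 2201, 2234, 969 and 1182 with DMSO and 2689, 2578, 1305 and 1684 with TGFB1, a response of 0.36 ± 0.14 that did not pass (adjusted p = 0.2295). The treated SW620 libraries lay above their DMSO libraries but below every SW480 library, and the difference was -3.41 ± 0.21 (adjusted p = 2.88e-07). EGLN3 in SW620 was 13.8, 14.5, 22.7 and 20.6 CPM with DMSO and 135, 137.5, 174 and 163 with TGFB1. Values in SW480 were 52.3, 39.8, 65.6 and 61.6 with DMSO and 89.0, 68.1, 151 and 126 with TGFB1. It rose by 3.10 ± 0.15 in SW620 and 0.95 ± 0.14 in SW480, with a difference of -2.15 ± 0.20 (adjusted p = 6.51e-05), and its treated levels overlapped between the lines. PFKFB4, an enzyme that sets fructose 2,6-bisphosphate, rose by 2.52 ± 0.15 and 0.75 ± 0.14, a difference of -1.76 ± 0.20 (adjusted p = 0.00107).

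The other 5 genes were KDM3A, a histone demethylase (difference -1.33 ± 0.26), NDRG1 (-1.16 ± 0.19), ANKRD37 (-1.11 ± 0.25), the glucose transporter SLC2A1 (-1.11 ± 0.19) and the enolase ENO2 (-1.02 ± 0.21). Members of the list did not move alike. LDHA, which makes lactate, rose by 0.82 ± 0.10 in SW480 and 0.48 ± 0.10 in SW620, and CA9, a carbonic anhydrase, rose in SW480 (1.22 ± 0.23) and had a response of 0.49 ± 0.19 in SW620, with differences of 0.34 ± 0.13 and 0.72 ± 0.30 that did not pass. VEGFA, an angiogenic factor, rose by 1.15 ± 0.20 in SW480 and 1.95 ± 0.20 in SW620, and its difference of -0.80 ± 0.28 did not pass (adjusted p = 0.146). The median difference of the list was -0.75 without the 2 SW480 Tet2CD libraries, against -0.017 over all genes in that fit.

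Proliferation genes went the other way, with 7 of 31 above 0 and 0 below and a median difference of 0.49. In SW620 24 of the 31 fell and 0 rose, with a median response of -0.77, whereas in SW480 0 passed in either direction and the median was -0.30. Over all genes, 9.84% fell in SW620, 0.44% fell in SW480, and 1.07% had a difference above 0. The 7 were the replication clamp PCNA and MCM2, MCM3, MCM4, MCM5, MCM6 and MCM7, the subunits of the replicative helicase. PCNA in SW620 was 228, 234, 274 and 248 CPM with DMSO and 96.0, 94.0, 105 and 100.4 with TGFB1. The SW480 libraries had 377, 320, 424 and 381 with DMSO and 331, 283, 276 and 270.4 with TGFB1. Every treated SW620 library was below every DMSO library of that line, while the SW480 groups overlapped. PCNA fell in SW620 (-1.31 ± 0.11) and had a response of -0.37 ± 0.11 in SW480 that did not pass (adjusted p = 0.118), a difference of 0.94 ± 0.16 (adjusted p = 0.00512). MCM4 had the largest difference of the 7, at 1.22 ± 0.23 (adjusted p = 0.0122), and MCM3 the smallest, at 0.62 ± 0.14 (adjusted p = 0.0237). Mitotic genes such as CCNB1, PLK1 and AURKA fell in SW620, by 0.93, 0.82 and 0.57 on the log2 scale, but their differences did not pass. The median difference of the list was 0.46 without the 2 SW480 Tet2CD libraries, against -0.017 over all genes in that fit.

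Genes of the cytostatic programme, which TGF-beta uses to stop the cell cycle, had 3 of 17 below 0 and 2 above (1.25% and 1.07% of all genes). CDKN1A, the cell cycle inhibitor p21, was 3.76, 3.25, 3.98 and 4.02 CPM in SW620 with DMSO and 7.84, 8.18, 11.5 and 10.6 with TGFB1. In SW480 it was 126, 122, 125 and 117 with DMSO and 116.5, 117, 129 and 93.7 with TGFB1. It rose by 1.34 ± 0.17 in SW620, had a response of -0.10 ± 0.11 in SW480, and differed by -1.44 ± 0.21 (adjusted p = 0.00262), while every treated SW620 library lay below every SW480 library. CDKN1B, the inhibitor p27, differed by -0.87 ± 0.20 (adjusted p = 0.0312) and GADD45A by -1.16 ± 0.22 (adjusted p = 0.0112). CDC25A, a phosphatase that activates cyclin-dependent kinases, differed by 1.01 ± 0.21 (adjusted p = 0.0184), and CCND1, cyclin D1, by 0.72 ± 0.17 (adjusted p = 0.0400). The latter 2 fell in SW620. MYC passed in neither line, with responses of 0.42 ± 0.21 and 0.13 ± 0.21.

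**Figure D3:**
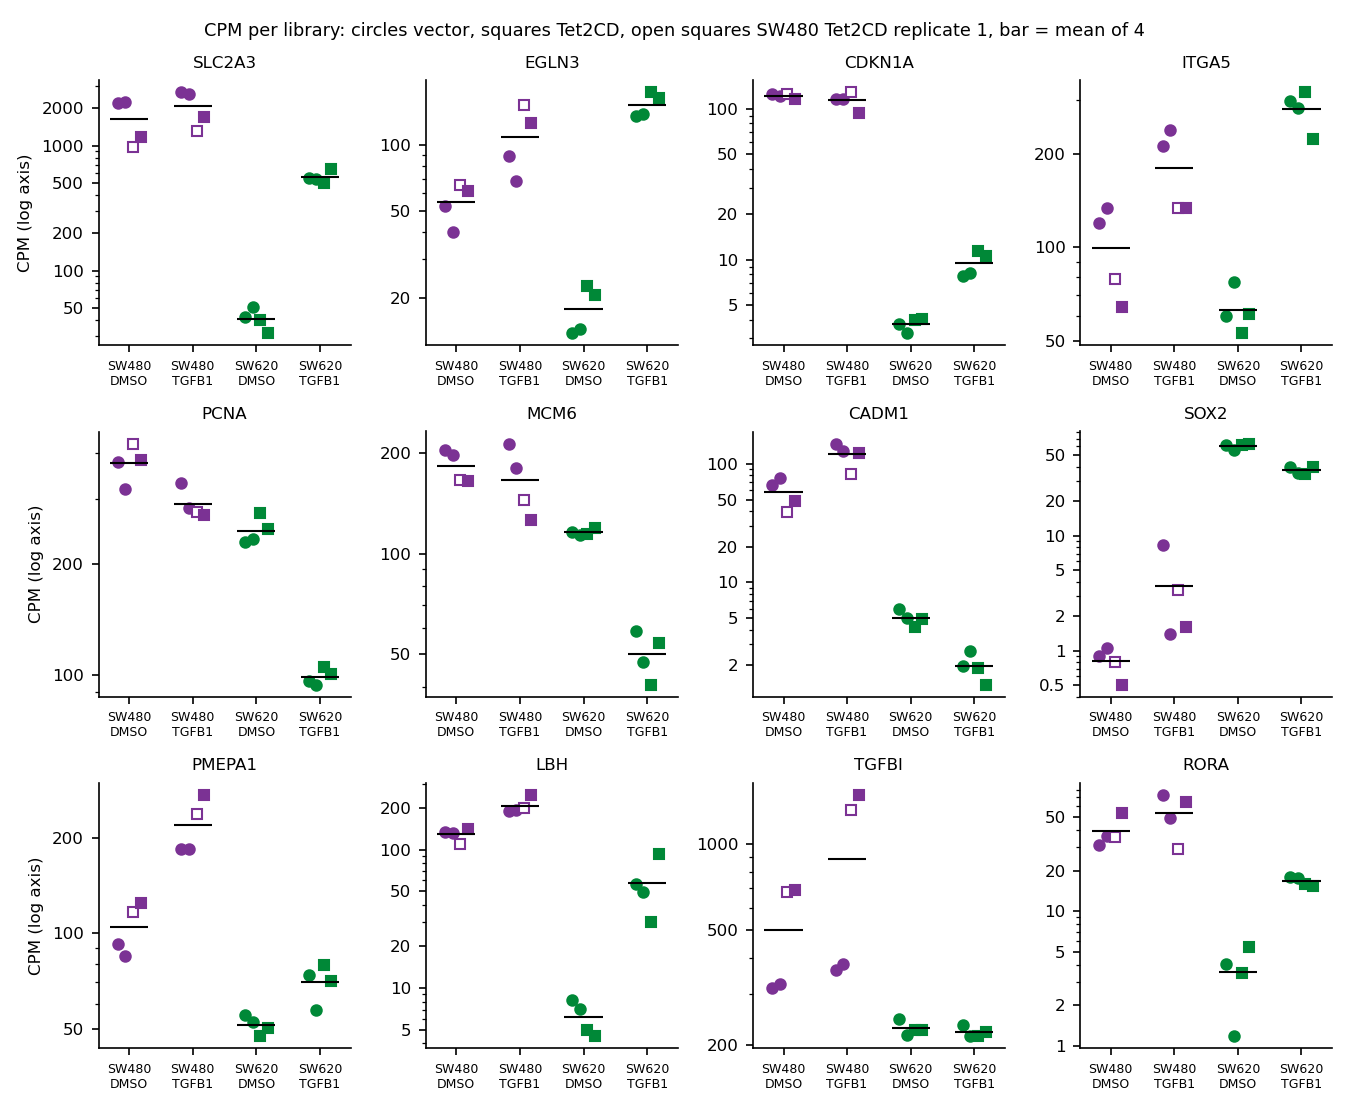
CPM (log axis) of 12 genes in each of the 16 libraries, by line and treatment, with circles for vector, squares for Tet2CD, open squares for SW480 Tet2CD replicate 1 and bars for the mean of 4 libraries. SLC2A3, EGLN3 and CDKN1A rise in SW620 from levels below those of SW480, PCNA and MCM6 fall in SW620, and CADM1 moves in opposite directions in the lines.

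Cholesterol synthesis genes had 4 of 24 below 0 (1.25% of all genes) and 0 above, with a median difference of -0.53. In SW620 19 of the 24 rose, against 1 in SW480 (CYP51A1). Of all genes, 9.92% rose in SW620 and only 1.1% in SW480. The list was also above 0 in SW480, with a median response of 0.38 against 0.032 over all genes, and of 0.82 in SW620. Those below 0 included INSIG1, a sensor of sterols (difference -1.32 ± 0.27, adjusted p = 0.0160), MSMO1 (-1.31 ± 0.27), and FDFT1, squalene synthase (-0.94 ± 0.18, adjusted p = 0.0122). The median difference of the list was -0.13 in vector cells and -0.90 in Tet2CD cells. It was -0.45 without the 2 SW480 Tet2CD libraries, against -0.017 over all genes in that fit.

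Smaller numbers passed in other lists, beside shares over all genes of 1.07% above 0 and 1.25% below. The stress response genes DDIT4, an inhibitor of mTORC1 (difference -1.51 ± 0.19), and HERPUD1 (-1.48 ± 0.29) rose more in SW620, as did GDF15 (-1.57 ± 0.21), a secreted member of the TGF-beta family, and IGFBP3 (-1.94 ± 0.28), a binding protein of insulin-like growth factors. IRF1 (-1.31 ± 0.22) was the single interferon-stimulated gene of 25 past the threshold, and the median of that list was -0.72. Of 33 epithelial genes, ELF3, an epithelial transcription factor (-1.24 ± 0.19), and JUP, plakoglobin (-0.65 ± 0.15), were below 0. Of the 33, 10 rose in SW620 against 0 in SW480. Over all genes 9.92% rose in SW620 and 1.1% in SW480, so the 0 in SW480 is near that share. CDH1, E-cadherin, rose in SW620 (0.78 ± 0.20, adjusted p = 0.0130) and had a response of -0.13 ± 0.21 in SW480. Its difference of -0.91 ± 0.29 did not pass in the main fit (adjusted p = 0.118), and whether it passed depended on the libraries fitted. VIM, vimentin, passed in neither line (0.24 ± 0.12 and 0.11 ± 0.12). A difference past the threshold was seen for 0 of 10 EMT transcription factors and their opponents, near the share of 2.32% over all genes. FOS and MAFF, immediate early transcription factors, differed by -1.09 ± 0.25 and -1.01 ± 0.20.

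Of 24 WNT/beta-catenin targets 3 were above 0 and 1 below, against 1.07% and 1.25% of all genes. EPHB2, a receptor of the intestinal crypt, was 252, 239, 299.5 and 305 CPM in SW620 with DMSO and 181, 167, 188.0 and 188.1 with TGFB1, and in SW480 44.1, 47.7, 35.0 and 29.7 with DMSO and 56.8, 57.8, 44.0 and 48.6 with TGFB1. It fell in SW620 (-0.59 ± 0.10), with a response of 0.42 ± 0.11 in SW480 (adjusted p = 0.0724), a difference of 1.01 ± 0.15 (adjusted p = 0.00286). NOTUM, a secreted inhibitor of WNT ligands, differed by 0.98 ± 0.23 and CCND1 is the third, while BMP4 (-0.79 ± 0.18) was below 0. UHRF1, which guides maintenance DNA methylation, was the only DNA methylation gene of 12 to pass, at 1.17 ± 0.26 (adjusted p = 0.0260). Among 30 ribosomal protein genes 0 passed for the difference or for the response of either line. Over all genes the shares were 2.32% for the difference, 1.54% in SW480 and 19.8% in SW620. Over all lists, 46 of 491 distinct members tested had a difference past the threshold (9.37%, against 2.32% of all genes), but the lists were drawn up with earlier results of these data known.

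**Figure D4:**
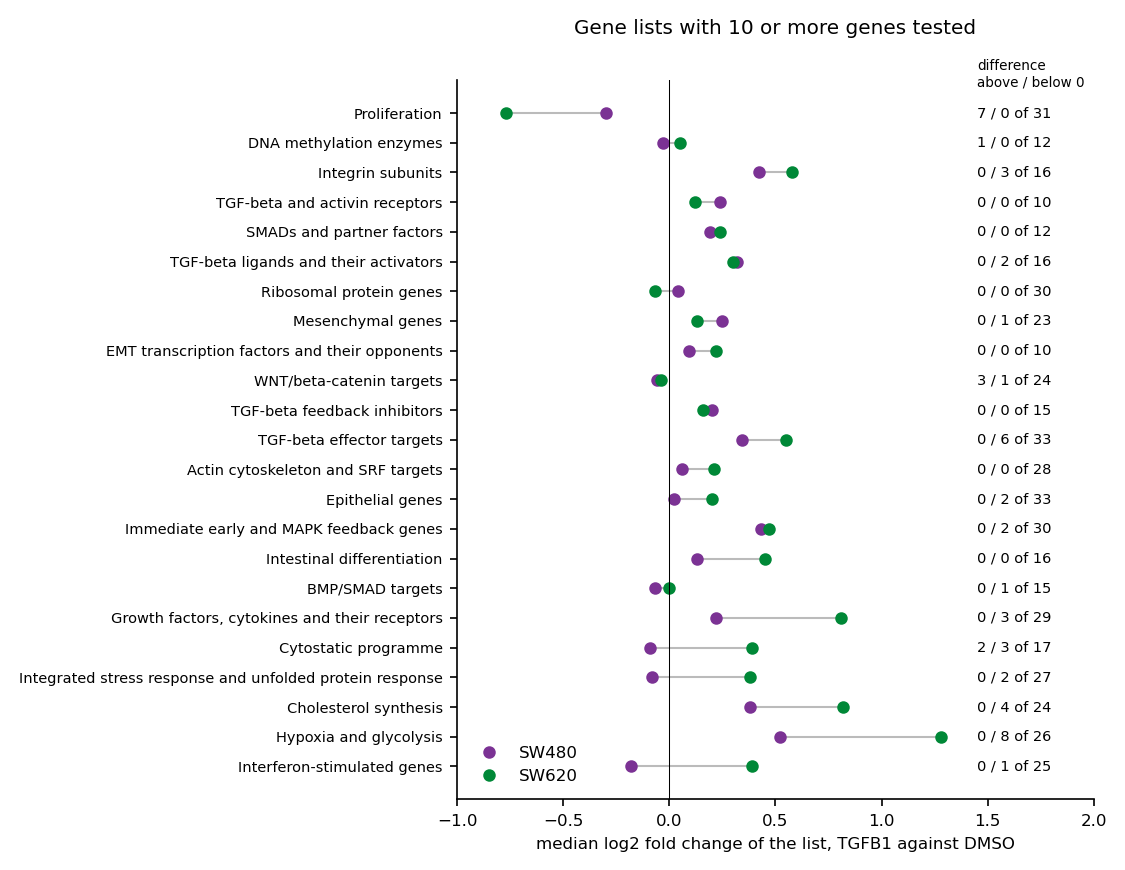
Median log2 fold change of TGFB1 against DMSO in SW480 (purple) and SW620 (green) for the 23 lists with 10 or more genes tested, ordered by the median difference, with the number of members whose difference was past the threshold above and below 0 at the right. Hypoxia and glycolysis (0.52 and 1.28) and proliferation (-0.30 and -0.77) have the largest counts of members that differ.

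Only 3 genes changed in opposite directions in the lines with both responses past the threshold, namely CADM1, HSD11B2 and PRSS23. PRSS23, a serine protease named here after its values were seen, had responses of -0.84 ± 0.18 in SW480 and 1.17 ± 0.25 in SW620, a difference of -2.01 ± 0.31. CADM1, a cell adhesion molecule, was 66.2, 76.3, 39.0 and 48.7 CPM in SW480 with DMSO and 148, 129.5, 81.8 and 122 with TGFB1. In SW620 it was 5.95, 5.02, 4.23 and 4.96 with DMSO and 1.96, 2.65, 1.92 and 1.37 with TGFB1. The groups did not overlap in either line, and the responses of 1.08 ± 0.14 and -1.32 ± 0.26 gave a difference of 2.40 ± 0.30 (adjusted p = 0.00145). HSD11B2, which inactivates cortisol, rose by 1.20 ± 0.28 in SW480, where the DMSO libraries ranged over 1.78 to 3.98 CPM. It fell in SW620 (-1.24 ± 0.19), where the DMSO libraries ranged over 27.2 to 34.5 CPM, a difference of 2.45 ± 0.34 (adjusted p = 0.00252). SOX2 fell in SW620 (-0.71 ± 0.22), where the DMSO libraries ranged over 55.5 to 63.3 CPM. In SW480 it lay at 0.51 to 1.06 CPM with DMSO and 1.39 to 8.26 with TGFB1, a response that did not pass (adjusted p = 0.0545). The difference was 2.82 ± 0.56 (adjusted p = 0.0150).

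Other genes above 0 included SLC39A10, a zinc importer that rose in SW480 (1.49 ± 0.27) with a response of -0.32 ± 0.22 in SW620, HAS3, a hyaluronan synthase that fell in SW620 (-1.54 ± 0.21), NFIA, a transcription factor (-1.91 ± 0.44 in SW620), and POLR1G, a subunit of RNA polymerase I (-1.49 ± 0.20). RGPD6 fell in SW620 (-2.52 ± 0.35), but reads of its near-identical copies could be split by the counting, so the value is uncertain. Among the 25 genes of smallest p, a set taken after the values were seen, CAD, RRS1, GEMIN4, MYBBP1A, ALDH1B1 and CD24 were also above 0, and each fell in SW620 with a response that did not pass in SW480. CD24, a surface glycoprotein, went from 186 to 204 CPM in SW620 with DMSO to 69.6 to 85.8 with TGFB1 and lay at 3.18 to 7.97 CPM in SW480.

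Among the genes below 0, LBH, a transcriptional cofactor, was 8.15, 7.09, 4.98 and 4.49 CPM in SW620 with DMSO and 56.8, 49.5, 29.8 and 93.6 with TGFB1, against 110 to 140.0 and 191 to 248 in SW480. Its response was 3.23 ± 0.31 in SW620 and 0.69 ± 0.24 in SW480, where it did not pass although the groups did not overlap, a difference of -2.54 ± 0.39 (adjusted p = 0.00363). UNC5B, a netrin receptor, differed by -2.27 ± 0.32, and IL32 by -3.44 ± 0.62. IL32 rose in SW620 from 1.18 to 2.82 CPM to 7.88 to 18.3. H1-2, a linker histone, rose in SW620 (1.46 ± 0.31) and had a response of -1.14 ± 0.29 in SW480 (adjusted p = 0.0663), a difference of -2.60 ± 0.43 (adjusted p = 0.00511). DHRS2, an oxidoreductase, rose in SW620 (1.57 ± 0.48) with a response of -1.37 ± 0.37 in SW480 (adjusted p = 0.0786). The SW620 groups overlapped, since Tet2CD TGFB1 replicate 1, at 1.37 CPM, lay below all DMSO libraries of that line (1.57 to 4.98). The SW620 response of DHRS2 was 2.59 in vector cells and 0.71 in Tet2CD cells. CD22 fell in SW480 (-1.85 ± 0.34), from 3.97 to 9.07 CPM to 0.800 to 2.78. PNRC1, WIPI1, SERPINA1 and H2AC6, from the set of smallest p, all rose in SW620.

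Some of the largest fitted differences rest on a handful of counts. LINC00868 had 1 count over the 4 SW620 DMSO libraries and 41 with TGFB1, a ratio of 40.2 (exact 95% interval 6.82 to 1630), PDCD1 had 2 and 28 (13.7, 3.46 to 119), and CYP2E1 had 1 and 8 in SW480 (7.85, 1.05 to 348). The intervals cover counting error only. CCL20 rose in SW620 (12 counts with DMSO, 227 with TGFB1), with 0 and 3 counts in SW480. SAA1 fell in SW480 (825 counts with DMSO, 117 with TGFB1) and had 0 counts in SW620, so no difference can be stated for it.

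The level with DMSO was also set beside the difference. Of the 187 genes below 0, 76.5% had a higher mean CPM in SW480 than in SW620 with DMSO, against 50.9% of all genes tested and 37.5% of the 160 genes above 0. The same DMSO libraries enter the level and the response, so these shares are a description and no test was made.

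RORA, a nuclear receptor that the study followed, was 4.07, 1.18, 3.49 and 5.44 CPM in SW620 with DMSO and 17.9, 17.7, 15.9 and 15.4 with TGFB1. In SW480 it was 31.1, 36.3, 35.8 and 53.3 with DMSO and 72.8, 48.9, 28.9 and 64.7 with TGFB1. It rose in SW620 (2.22 ± 0.37, adjusted p = 0.000655) and had a response of 0.47 ± 0.27 in SW480, and the difference of -1.75 ± 0.46 did not pass (adjusted p = 0.0569) except without the 2 SW480 Tet2CD libraries (adjusted p = 0.00316). TET2 itself, with which reads of the Tet2CD transgene are counted, was 10.7 to 24.5 CPM in the vector libraries and 837 to 2713 CPM in the Tet2CD libraries, and passed in neither line. CTNNB1, beta-catenin, passed in neither line (-0.41 ± 0.15 and -0.17 ± 0.15). SPARC had 2 counts over the SW620 DMSO libraries and 1 with TGFB1, which allows no comparison.

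Whether the difference between the lines depended on the construct was tested gene by gene, as the line difference in vector cells minus that in Tet2CD cells. By edgeR 0 genes passed (0.0%), with 482 at an unadjusted p under 0.05, and DESeq2 called 1. All 347 genes had a difference of the same sign in vector and in Tet2CD cells, which their selection on the average favours. The median difference of the genes below 0 was -1.22 in vector cells and -1.17 in Tet2CD cells, and that of the genes above 0 was 1.14 and 0.86. In the vector libraries alone 1488 genes differed between the lines and in the Tet2CD libraries alone 0, with 573 at an unadjusted p under 0.05, the latter fit holding the 2 libraries that stood apart among its 8.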

How the data were processed

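Groups were taken from the labels. The authors named TRIzol extraction, a TruSeq kit, trimming, and RSEM with bowtie2 (per the submitters' processing notes, Bowtie, RSEM and mm10, a mouse build, with no version named, although all 33382 identifiers are human). The authors deposited expected counts per gene, which are estimates of reads and need not be whole, and deposited TPM, which was not used here. How the GC normalization stated by the study entered the counts was not found, and no source used here says whether strand was counted. The study's text gives a mixture of TGF-beta isoforms and a longer treatment than the labels, which were followed.

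Expected counts were rounded and tested with edgeR 4.0.16 in R 4.3.3 (TMM scaling, filter on low counts, glmQLFit and glmQLFTest) in 1 fit of the 16 libraries with 4 line and construct means and a TGFB1 effect per line, 10 residual degrees of freedom and a biological coefficient of variation of 17.9%. The construct dependence came from a fit of 8 group means. The Benjamini-Hochberg method adjusted p over 14983 genes, with a threshold of 0.05, and each standard error is the log2 value divided by the square root of F. The model was tested on simulated data. CPM is the count scaled by the TMM-adjusted library total. Replicates are numbered in accession order, nothing says that they came from separate cultures, so that p measures only how far these libraries spread, possibly for technical reasons. All replicate pairs differed beyond sampling noise by chi-square.

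The comparison, the 27 gene lists and their members were chosen with earlier results of these data known. Genes named are, with a symbol and a mean log2 CPM of at least 1.0, the 15 largest differences past the threshold per direction, up to 2 members per list and direction, the 5 largest responses per line and direction, and a fixed set (TGFBR1, TGFBR2, SMAD2, SMAD3, SMAD4, SMAD7, SKIL, PMEPA1, TGFBI, CDH1, VIM, TET2, RORA, SPARC and CTNNB1). The 25 genes of smallest p and other list members were named after their values were seen. A gene known only by an Ensembl identifier counted as having no symbol, and a few genes that these rules select are not reported here. Alternatives were another scaling, no filter, DESeq2 1.42.0, other designs, a GC offset and leaving out libraries. Promoters are from the RefSeq table, which matched 11278 genes by symbol.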

Additional observations from a re-analysis of the deposited data

Results flagged for a closer look

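Of the genes taken by the rules for naming and by the smallest p, 71 reported here had a response that differed between the lines by the test of the difference itself, each given with its log2 difference, SW480 minus SW620. Those that rose in SW620 and did not pass in SW480 were LINC00868 (-4.26), PDCD1 (-3.90), IL32 (-3.44), SLC2A3 (-3.41), DHRS2 (-2.95), NAPSA (-2.73), H1-2 (-2.60), LBH (-2.54), KRT17 (-2.41), TMEM125 (-2.28), UNC5B (-2.27), PRSS22 (-2.24), RGCC (-2.24), ARHGAP40 (-2.21), CTSK (-2.17), IGFBP3 (-1.94), H2AC6 (-1.87), WIPI1 (-1.75), ITGB6 (-1.65), GDF15 (-1.57), HERPUD1 (-1.48), CDKN1A (-1.44), INSIG1 (-1.32), IRF1 (-1.31), SERPINA1 (-1.25), ELF3 (-1.24), TGM2 (-1.22), IGFL2-AS1 (-1.21), GADD45A (-1.16), FOS (-1.09), MAFF (-1.01), FDFT1 (-0.94), ITGA3 (-0.88), BMP4 (-0.79) and JUP (-0.65). EGLN3 (-2.15), PFKFB4 (-1.76), DDIT4 (-1.51), PNRC1 (-1.43), ITGA5 (-1.30) and PDGFB (-1.15) rose in both lines and more in SW620, and CD22 (-2.02) fell in SW480 without passing in SW620.

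Those that fell in SW620 and did not pass in SW480 were CCND1 (0.72), PCNA (0.94), NOTUM (0.98), EPHB2 (1.01), CDC25A (1.01), MCM6 (1.05), CAD (1.12), ALDH1B1 (1.14), UHRF1 (1.17), GEMIN4 (1.21), MYBBP1A (1.33), CD24 (1.59), RRS1 (1.59), HPDL (1.60), POLR1G (1.66), PLD6 (1.67), NANP (1.68), RYR1 (1.68), RIN2 (1.78), HAS3 (1.79), NFIA (2.06), SUSD3 (2.09), RGPD6 (2.70), SOX2 (2.82) and CYP2E1 (3.64). SLC39A10 (1.81) rose in SW480 and did not pass in SW620, LINC01391 (2.34) passed in neither line, and CADM1 (2.40) and HSD11B2 (2.45) rose in SW480 and fell in SW620. The values of LINC00868, PDCD1 and CYP2E1 depend on how the model treats groups of 1 or 2 counts. Other differences rest on few counts as well. NAPSA had 7 counts over the SW620 DMSO libraries and 41 with TGFB1, and CTSK had 13 and 67.

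With each of the 16 libraries left out in turn, 45 of the 71 passed in every fit. Fewest fits passed for CD22, CCND1, NOTUM, NFIA, SUSD3 and CYP2E1 (3 each) and for PDCD1, NAPSA and RYR1 (4 each). ITGB6, UHRF1 and HPDL passed in 6, CTSK and RIN2 in 7, KRT17, FOS, JUP and LINC01391 in 8, LINC00868 in 9, BMP4 and CDC25A in 10, PLD6 in 11, DHRS2 in 12, HAS3 in 13, SOX2 in 14 and SLC39A10 in 15. No group of libraries reached the size needed to test for a library far from the others.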

How the results depend on the processing

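The sign of all 347 differences was the same under each alternative that gave a value, while the number past the threshold moved. The genes were selected in the same libraries that these fits use, which favours the same sign. It was 639 with no filter on low counts, 670 by DESeq2, 34 with no construct block, 1488 in vector libraries only, 0 in Tet2CD libraries only (573 at an unadjusted p under 0.05), 690 with an offset for GC content and 1741 without SW480 Tet2CD replicate 1 of both treatments. It was 359, 317 and 294 with relative log expression scaling, with all 24 libraries and with 8 group means. For SW480 alone, 231 genes became 478, 454, 11, 1886, 0 and 384 under the first 6 settings in that order and 1864 without the 2 libraries. For SW620 alone, 2960 genes became 1353 with no construct block, 9 in Tet2CD libraries only and 5623 without the 2 libraries. The 0 genes of the construct dependence became 26 with no filter, 1 by DESeq2, 1 with all 24 libraries and 1 without the 2 libraries. The 46 list members became 89 with no filter, 80 by DESeq2, 11 with no construct block, 122 in vector libraries only, 0 in Tet2CD libraries only and 135 without the 2 libraries.

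Leaving out 1 library moved the difference between 152 and 902 genes, the SW480 response between 37 and 1532, the SW620 response between 1976 and 4328, the construct dependence between 0 and 0, and the list members between 30 and 85. Of the difference, the count was 902 without SW480 Tet2CD TGFB1 replicate 1 and 715 without replicate 2, 169 and 172 without SW480 vector DMSO replicates 1 and 2, 213 and 170 without SW480 vector TGFB1, 184 and 179 without SW620 Tet2CD DMSO, 152 and 163 without SW620 vector DMSO, and 152 and 154 without SW620 vector TGFB1. The SW480 count was 1532 without SW480 Tet2CD TGFB1 replicate 1, 123 without SW480 Tet2CD DMSO replicate 1, and 40, 72, 90 and 37 without SW480 vector DMSO replicates 1 and 2 and SW480 vector TGFB1 replicates 1 and 2. Fits with fewer libraries have fewer degrees of freedom, and the cause of the rises was not tested. The labels give library numbers, 21 to 32 and 33 to 44 in the same order of groups, and no source says that they pair libraries. The gap between the libraries of a group was correlated between DMSO and TGFB1 over 6848 genes. The r was 0.91 in SW480 Tet2CD, 0.17 in SW480 vector, 0.02 in SW620 Tet2CD and -0.11 in SW620 vector. In SW480 Tet2CD the libraries of a run of numbers thus deviated together. The main fit paired no libraries in any group, so this shared gap stays in its spread. A replicate block for these 2 runs of numbers within each line gave 487 genes for the difference, 331 for the SW480 response and 3458 for the SW620 response. That block was shared by vector and Tet2CD cells of a line. The gap of SW480 Tet2CD DMSO had an r of 0.45 with that of SW480 vector DMSO and -0.3 with SW480 vector TGFB1. No block within line and construct was fitted. With 2694170 to 4410567 counts per library, values of genes with a few counts are imprecise.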
